A study of Homo sapiens with 24 samples.

Results

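Genes of cholesterol synthesis, cholesterol uptake and control by the transcription factor SREBP2 were examined in cells of RT112, a human line grown from a bladder cancer. The set was listed by name as 30 genes, taken step by step along the pathway. Of these, 28 had a probe set annotated to 1 gene symbol, out of 19775 genes so measured, and the brightest probe set of each gene over all 24 arrays was used. CYP51A1, a demethylase of lanosterol, shared its probe sets with a neighbouring gene, and neither it nor FDFT1, squalene synthase, was analysed here.

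Messenger RNA was measured on Affymetrix 3' expression arrays, with knockdown of the growth factor receptor FGFR3 as the question. All cells carried a hairpin RNA that doxycycline induces. The labels name 1 line with a hairpin against EGFP, a gene that human cells lack, and 3 lines with FGFR3 hairpins called 2-4, 4-1 and 6-16. Each line has 3 arrays without doxycycline and 3 arrays after 48 h with 1 µg/ml, and all cells grew in medium with 1% FBS. The labels do not say whether the 3 arrays of a group came from separate cultures, so p-values measure the spread between these arrays as labelled. That spread holds large differences and may not be that between cultures of 1 line. The gene ARMCX3, for example, had log2 values of 9.63, 4.68 and 9.45 on the 3 arrays labelled 2-4 without doxycycline. RT112 stands here for urothelial cells, the lining of the bladder. Of 17 urothelial and epithelial markers, 15 lay at 8 or more on the log2 scale on all arrays, and the uroplakin UPK3A (6.96 to 7.43) and the keratin KRT20 (5.25 to 7.45) lay lower.

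Cells make cholesterol from acetyl-CoA through mevalonate, isoprenoid diphosphates, squalene and lanosterol. SREBP2, the product of SREBF2, is held in the endoplasmic reticulum with its escort SCAP by INSIG proteins when sterols are plentiful. When sterols fall short, SCAP carries SREBP2 to the Golgi, where the proteases encoded by MBTPS1 and MBTPS2 release a fragment that enters the nucleus and switches on most genes of the pathway. Proliferating tumour cells need sterols and isoprenoids for new membranes and for lipid anchors on proteins.

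The arrays were read in 2 ways, by label and by the level of TACC3, the gene of a mitotic spindle protein to which FGFR3 is fused in these cells. TACC3 lay between 10.49 and 11.43 on 9 arrays and between 11.82 and 12.62 on 15, and the arrays were divided in the gap between. This split rests on a measured level and not a treatment named in the labels, and comparisons across it are descriptions with no test. The split cut across the labels. Of 12 arrays labelled with doxycycline 4 lay below it, and of those labelled without it 5 did. Each labelled group held 1 or 2 arrays below, except that the 6-16 arrays without doxycycline held 0. The dimmer of 2 FGFR3 probe sets followed the split, with 8.71 to 9.88 on the lower-TACC3 arrays and 10.34 to 11.20 on the others, whereas the brighter overlapped, with 11.13 to 12.20 against 11.36 to 12.34.

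Sterol synthesis genes were lower on the lower-TACC3 arrays. For 17 of the 28 genes, all 9 lower-TACC3 arrays lay under all 15 others, and for 0 genes did they all lie above. Across all genes, 3.09% lay wholly lower and 2.90% wholly higher on the lower-TACC3 arrays. The difference of medians over the 28 genes had a median of -0.54 on the log2 scale, against -0.0082 over all genes. It was under -1, or more than 2-fold, for 8 of the 28, against 0.253% of all genes. Ordered from the most negative difference among 19775 genes, INSIG1 was number 14, MSMO1 15, SQLE 17 and HMGCS1 18. The 17 genes differed from 1.23-fold for SREBF2 to 3.03-fold for MSMO1 and INSIG1.

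RNA quality and markers of other cells were set beside the split. The excess of 3' over 5' signal for GAPDH was 0.28 to 0.42 on the lower-TACC3 arrays and 0.20 to 0.29 on the others, and that for ACTB 0.79 to 1.17 and 0.70 to 0.97, on the log2 scale. The mean of 6 fibroblast markers was 8.59 to 8.73 on the lower-TACC3 arrays and 8.51 to 8.67 on the others. None of these 6 separated the sides by itself, and LUM lay at 12.84 to 13.56. The mean of 5 leukocyte markers was 6.84 to 7.08 and 6.79 to 7.10, and that of 4 endothelial markers 7.43 to 7.66 and 7.48 to 7.74. Of the 17 urothelial and epithelial markers, 1 lay wholly lower on the lower-TACC3 arrays, the keratin KRT18, against 3.09% of all genes. Wholly higher were 4, KRT13, UPK1A, GATA3 and CDH1, against 2.90%. Their differences of medians were 0.29, 1.72, 0.34 and 0.43, and that of KRT18 was -0.37. The mean of these 17 was 11.45 to 11.88 on the lower-TACC3 arrays and had a lowest value of 11.30 and a median of 11.40 on the others, with overlapping ranges. No marker lay at 0, since log2 array values have no true zero, and the part of these measures in the sterol gene differences was not tested. In bulk RNA, fewer cells of one kind and less RNA per cell cannot be told apart.

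**Figure D1:**
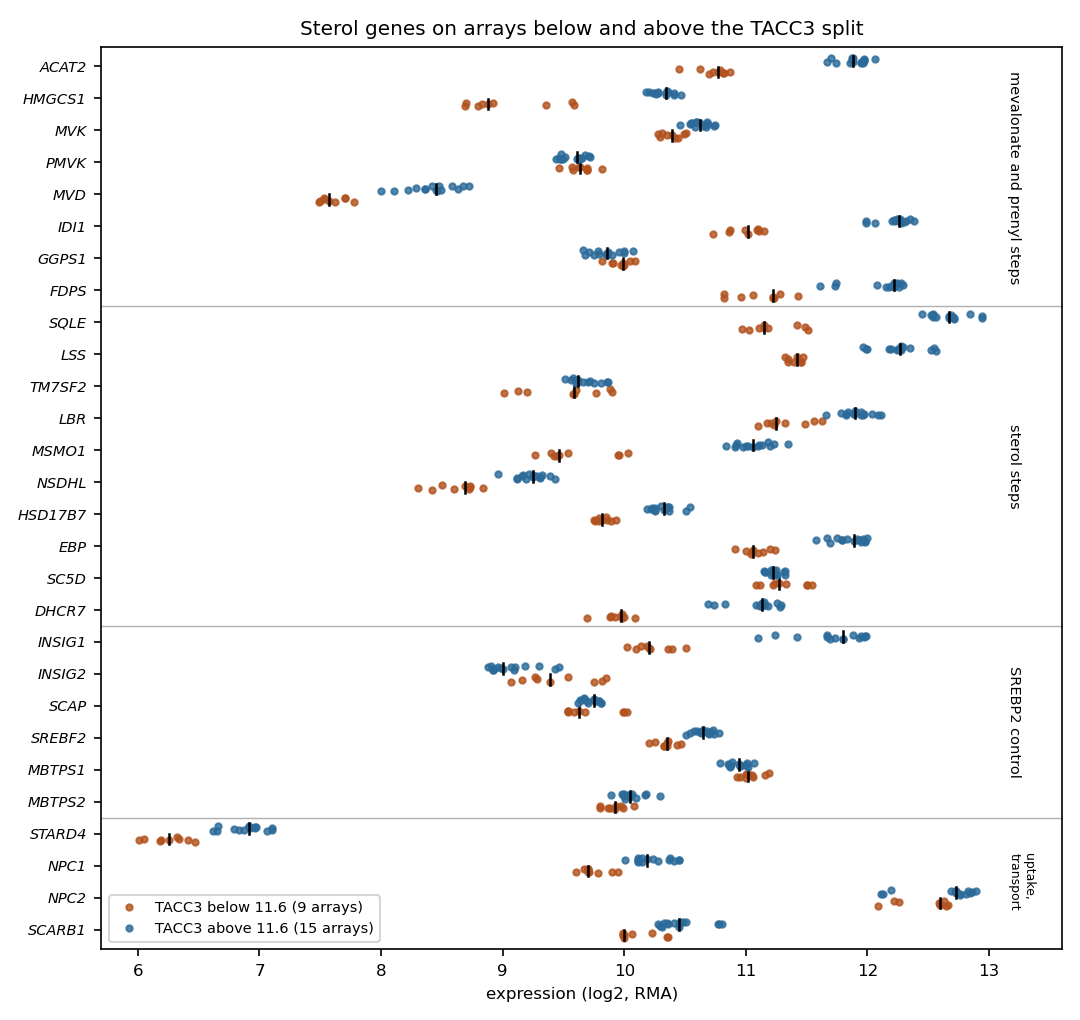
Log2 expression (x axis) of the 28 sterol genes (y axis, in pathway order) on the 9 lower-TACC3 arrays and the 15 others; points are arrays and black ticks are medians. Points of the sides do not overlap for 17 genes, among them MSMO1, with medians of 9.46 and 11.06, and SREBF2, with 10.35 and 10.65.

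Genes of the mevalonate steps came first in the pathway. ACAT2, which joins acetyl-CoA units, had log2 values of 10.45 to 10.87 with a median of 10.77 on the lower-TACC3 arrays, and 11.67 to 12.06 with a median of 11.88 on the others. HMGCS1, which makes HMG-CoA, had 8.69 to 9.59 with a median of 8.88, against 10.18 to 10.47 with a median of 10.34, which is 2.75-fold. Neither gene had an array of one side within the range of the other, with gaps of 0.81 and 0.59 between the sides. MVD, which makes isopentenyl diphosphate, had 7.49 to 7.78 with a median of 7.57, against a median of 8.45 and a highest value of 8.72, with a gap of 0.22 between the sides. IDI1, which isomerises that product, had 10.73 to 11.15 with a median of 11.02, against 11.99 to 12.38 with a median of 12.26, or 2.37-fold. FDPS, which makes farnesyl diphosphate, had 10.82 to 11.43 with a median of 11.22, against 11.61 to 12.29 with a median of 12.22. All 3 genes again separated the sides.

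The 3 other genes of these steps overlapped. The kinase MVK had medians of 10.39 and 10.62, with 1 array above the split at 10.46 under the highest of the lower-TACC3 arrays at 10.51. The next kinase, PMVK, had medians of 9.64 and 9.61. GGPS1, which lengthens farnesyl diphosphate for protein prenylation and so leads away from sterols, had 9.99 and 9.86, a difference of 0.13 in the opposite direction. The low difference of MVK depended on the probe set. Of its 3 other probe sets, 2 separated the sides with differences of -0.54 and -0.87, and 1 overlapped at -0.02.

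From squalene onwards, 8 of 10 measured genes separated the sides. SQLE, squalene epoxidase and a slow step of the pathway, had 10.97 to 11.51 with a median of 11.15 on the lower-TACC3 arrays, and 12.45 to 12.94 with a median of 12.67 on the others. Its gap of 0.95 was the widest of the 28 genes. LSS, which closes the ring to lanosterol, had 11.32 to 11.47 with a median of 11.42, against 11.96 to 12.56 with a median of 12.27. MSMO1, a sterol C4-methyl oxidase, had 9.27 to 10.03 with a median of 9.46, against 10.84 to 11.35 with a median of 11.06. With INSIG1 it had the largest difference, -1.60. NSDHL and HSD17B7, the dehydrogenase and reductase that act with MSMO1, differed by -0.56 and -0.51, and HSD17B7 has near-identical pseudogene copies that its probe set, an x_at type, may not tell apart. EBP, the sterol isomerase, differed by -0.83. DHCR7, which reduces the last double bond of one branch, had 9.69 to 10.09 with a median of 9.97, against 10.69 to 11.29 with a median of 11.13, or 2.23-fold.

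The sterol C14 reductase step has a pair of enzymes, and they differed in these arrays. LBR, which is also a receptor of the nuclear lamina, had 11.10 to 11.63 with a median of 11.25, against 11.66 to 12.11 with a median of 11.90. Its sides were only 0.04 apart. TM7SF2 had medians of 9.59 and 9.62, and its lower-TACC3 arrays spread widely, from 9.01 to 9.90. SC5D, the desaturase, had medians of 11.27 and 11.22 and also overlapped.

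**Figure D2:**
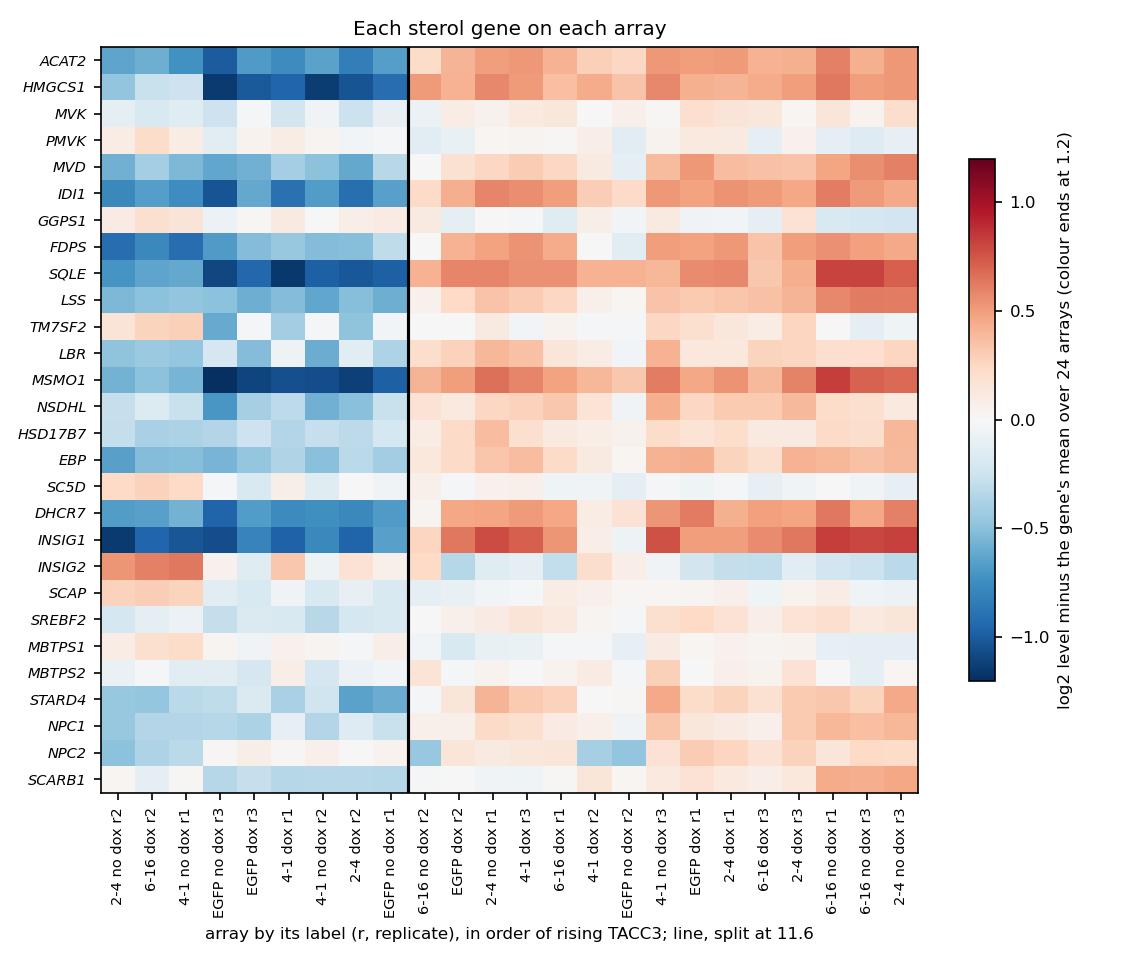
Log2 level of each sterol gene (rows) on each array (columns, in order of rising TACC3 and named by label) minus that gene's mean over the 24 arrays; blue is lower, red higher. The 9 arrays left of the line are blue for the 17 genes that separate the sides, and the rows of PMVK, GGPS1 and SC5D stay pale, with differences of medians of 0.02, 0.13 and 0.04.

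Among the genes of SREBP2 control, the feedback gene and the escort system parted. INSIG1, which retains SCAP and is itself a target of SREBP2, had 10.02 to 10.51 with a median of 10.20 on the lower-TACC3 arrays, and 11.10 to 11.99 with a median of 11.80 on the others. SREBF2 had 10.20 to 10.47 with a median of 10.35, against 10.51 to 10.78 with a median of 10.65. Both separated the sides, but SREBF2 did so by 0.04 only. INSIG2, which also retains SCAP, had 9.07 to 9.85 with a median of 9.39, against 8.88 to 9.46. The difference of medians, 0.39, was the highest of the 28, and the sides overlapped. SCAP had medians of 9.63 and 9.75, the site-1 protease gene MBTPS1 11.02 and 10.94, and the site-2 protease gene MBTPS2 9.92 and 10.05, all with overlap.

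Of 4 genes of uptake and transport, 2 separated the sides. STARD4, a carrier of cholesterol in the cytosol, had 6.01 to 6.47 with a median of 6.26 on the lower-TACC3 arrays, and 6.62 to 7.10 with a median of 6.91 on the others. NPC1, which exports cholesterol from lysosomes, had 9.60 to 9.95 with a median of 9.70, against 10.01 to 10.45 with a median of 10.19. Both separated the sides, NPC1 by a gap of 0.06. Its partner NPC2 overlapped, with medians of 12.60 and 12.73. SCARB1, a receptor for high-density lipoprotein, overlapped as well, with 9.99 to 10.36 against 10.28 to 10.80.

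Promoter letters were read because the 17 genes lay lower together. RefSeq promoters of the assembly GRCh38.p14, from 250 bases before to 50 after the start, matched 25 of the 28 genes, and ACAT2, SQLE and SCARB1 had none. The letters CCAAT, the motif of NF-Y, a factor that works beside SREBP2 on sterol promoters, were found on either strand in 12 of 15 promoters of genes that separated the sides and in 4 of 10 of genes that overlapped. They stood in 35.7% of all 27305 promoters. The letters GGGCGG, the motif of Sp1, were in 13 of 15 and 7 of 10, against 44.6%, and the E-box CACGTG in 2 of 15 and 2 of 10, against 7.43%. The sterol element, searched as TCACNCCAC, was in 1 promoter, that of SREBF2, against 1.15%. Matches of different motifs did not overlap each other in these 25 promoters, and both strands were searched. A match is a description of letters and not a site, and a search for fixed letters in 300 bases cannot show that a site is missing. The 27305 promoters are also not the same set as the 19775 measured genes.

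Promoters of 4 genes are printed as examples, with from 4 to 0 CCAAT matches. They are HMGCS1 (chr5:43313363-43313662, minus strand), MSMO1 (chr4:165327419-165327718, plus strand), SREBF2 (chr22:41832855-41833154, plus strand) and INSIG2 (chr2:118088221-118088520, plus strand), each printed along its gene from RefSeq GRCh38.p14. Capitals mark CCAAT or its reverse complement, and in SREBF2 also the sterol element, which starts 133 bases before the start of the gene. HMGCS1 has 2 CCAAT matches, MSMO1 4, SREBF2 1 and INSIG2 0. The most, 5 each, were in MVK and NSDHL, which are not printed. GGGCGG is not marked, and INSIG2 has 1 match to it.
HMGCS1: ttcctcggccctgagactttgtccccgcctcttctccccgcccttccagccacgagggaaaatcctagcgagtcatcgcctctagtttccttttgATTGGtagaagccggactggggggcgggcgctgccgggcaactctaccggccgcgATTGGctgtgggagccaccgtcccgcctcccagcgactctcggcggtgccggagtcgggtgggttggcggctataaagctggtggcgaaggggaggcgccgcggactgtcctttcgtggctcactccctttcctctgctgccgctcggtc
MSMO1: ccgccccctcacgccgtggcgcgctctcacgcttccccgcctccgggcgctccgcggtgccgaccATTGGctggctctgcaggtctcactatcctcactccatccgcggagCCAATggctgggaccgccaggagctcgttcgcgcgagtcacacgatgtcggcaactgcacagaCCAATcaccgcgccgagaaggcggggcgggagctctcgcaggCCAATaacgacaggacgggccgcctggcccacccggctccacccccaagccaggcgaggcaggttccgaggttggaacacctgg
SREBF2: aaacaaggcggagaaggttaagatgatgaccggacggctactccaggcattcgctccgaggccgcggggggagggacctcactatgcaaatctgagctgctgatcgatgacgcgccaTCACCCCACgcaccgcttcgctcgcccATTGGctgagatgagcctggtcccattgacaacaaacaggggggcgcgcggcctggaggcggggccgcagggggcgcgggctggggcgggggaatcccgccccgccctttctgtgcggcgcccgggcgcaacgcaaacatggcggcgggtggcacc
INSIG2: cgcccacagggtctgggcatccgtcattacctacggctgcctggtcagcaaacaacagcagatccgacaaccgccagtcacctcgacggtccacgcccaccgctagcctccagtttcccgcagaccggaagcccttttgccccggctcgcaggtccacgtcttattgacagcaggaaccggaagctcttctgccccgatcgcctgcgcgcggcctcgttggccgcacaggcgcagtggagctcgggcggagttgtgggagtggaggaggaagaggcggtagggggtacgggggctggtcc

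Spread within the sides was small beside spread within the labelled groups. The median SD of the 28 genes was 0.14 within sides, 0.33 within labelled groups and 0.31 over all 24 arrays. For the 17 genes that separated the sides it was 0.15 within sides and 0.46 within labelled groups. These 17 were picked by that separation, so their smaller SD within sides follows from the choice and is no further evidence. They are also part of the 28, and the same medians were not taken over all genes.

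Other probe sets of the same genes were read next. Of the 28 genes, 16 had 33 further probe sets, of which 14 separated the sides in the same direction, 0 in the opposite one, and 19 overlapped. Of all probe sets with 1 symbol, 2.57% lay wholly lower and 2.30% wholly higher. The 17 genes that separated the sides held 21 of the further probe sets and 12 of the 14. These probe sets measure transcripts of genes already described as lower, on the same arrays, and add no separate evidence. All 4 probe sets of SQLE separated the sides, with differences of -1.52, -1.55, -1.89 and -1.32, as did all 3 of INSIG1, with -1.60, -1.77 and -1.70. One further probe set of SREBF2 did so with -0.48, while another overlapped with -0.06. For IDI1, whose used probe set is also an x_at type, further ones gave -1.33 without overlap, and -0.11 and -0.06 with overlap. The further probe sets of NPC1 all overlapped, with -0.07, 0.03 and -0.05.

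The arrays also fell into sets that neither the labels nor TACC3 gave. ARMCX3 lay between 4.25 and 4.93 on 6 arrays and between 9.45 and 10.31 on the rest. GAS1 lay between 8.52 and 9.47 on 6 others and between 5.39 and 6.51 elsewhere, and the brighter FGFR3 probe set between 11.13 and 11.43 on 6 more and between 11.83 and 12.34 elsewhere. These are called the ARMCX3-low, GAS1-high and FGFR3-low arrays, and were chosen after the values were seen. The name FGFR3-low refers to the brighter probe set only. By the dimmer one, the 3 FGFR3-low arrays above the TACC3 split lay at 11.03 to 11.20, higher than all other arrays. Each set held 3 arrays below and 3 above the TACC3 split and arrays labelled as all 4 lines. The 6 unmarked arrays all lay above the split. The sets are not the labelled groups, and comparisons within them are descriptions. The GAPDH 3' excess did not overlap between the sides within any set. It was 0.37 to 0.42 against 0.26 to 0.29 in the ARMCX3-low arrays, with the lower-TACC3 side first. It was 0.28 to 0.33 against 0.20 to 0.27 in the GAS1-high arrays. In the FGFR3-low arrays it was 0.35 to 0.38 against 0.22 to 0.29. The ACTB 3' excess also separated the sides, except in the GAS1-high arrays. Their part in the sterol gene differences was not tested.

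The sets differed in the size of the sterol gene difference. The 17 genes that separated all arrays also separate them within each set by construction, and MVK was the 1 further gene that did so in all 3 sets. The resulting count of 18 genes, where 6.67% of all genes lay lower in all 3 sets, is therefore no further evidence. In the opposite direction 0 genes did so, against 7.63%. Counted by set, and with the 17 in each count, 18 genes lay lower in the ARMCX3-low, 23 in the GAS1-high and 21 in the FGFR3-low arrays, where 14.2%, 19.2% and 20.9% of all genes did. Wholly higher were 6 genes in the ARMCX3-low arrays, PMVK, TM7SF2, SC5D, INSIG2, SCAP and MBTPS1, against 21.8% of all genes. There were 0 in the GAS1-high arrays, against 14.2%, and 3 in the FGFR3-low arrays, GGPS1, INSIG2 and MBTPS1, against 24.1%. The 17 could not lie wholly higher in any set, so only the 11 genes that overlapped across all arrays were free to. These counts of higher genes, and the 0 in all 3 sets, are thus out of 11 genes. The median difference of the 18 genes was -0.60 in the ARMCX3-low, -0.85 in the GAS1-high and -1.08 in the FGFR3-low arrays. These 18 were picked by lying lower in each set, and medians by set were not taken over all genes. The ARMCX3-low arrays had the smallest difference for 15 of the 18, and the FGFR3-low arrays the largest for 14.

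SQLE shows this order. In the ARMCX3-low arrays its values were 11.42, 11.49 and 11.51 below the split and 12.54 on all 3 above it, or 2.09-fold. In the GAS1-high arrays they were 11.15, 11.15 and 11.18 against 12.45, 12.52 and 12.56, or 2.55-fold. In the FGFR3-low arrays they were 10.97, 11.03 and 11.11 against 12.84, 12.94 and 12.94, or 3.66-fold. The SQLE values of the 6 unmarked arrays, 12.67 to 12.71, lay above those of the ARMCX3-low and GAS1-high arrays and below those of the FGFR3-low ones on the higher-TACC3 side. MSMO1 gave 1.89-fold, 2.99-fold and 3.68-fold in the 3 sets, and HMGCS1 1.70-fold, 2.88-fold and 3.04-fold.

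HMGCS1 and TACC3 were not in the same order on the lower-TACC3 arrays. Among the 9 lower-TACC3 arrays, the 3 ARMCX3-low ones had the lowest TACC3, 10.49 to 10.79 against 11.31 to 11.43, and the highest HMGCS1, at 9.36 to 9.59 against 8.69 to 8.92. They lay above the other 6 for 11 of the 28 genes. Of these, 4 were among the 17 that separated the sides, HMGCS1, SQLE, MSMO1 and DHCR7, and 7 were among those that overlapped, PMVK, TM7SF2, SC5D, INSIG2, SCAP, MBTPS1 and SCARB1. They lay under the other 6 for FDPS and NPC2. Of all genes, 15.9% lay above and 11.5% under. The GAPDH 3' excess of these 3 arrays was 0.37, 0.37 and 0.42, against 0.28 to 0.38 on the other lower-TACC3 arrays.

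Some genes that overlapped across all arrays did not overlap within a set. SCAP had 9.99, 10.00 and 10.02 on the lower-TACC3 ARMCX3-low arrays and 9.62, 9.75 and 9.79 on the higher-TACC3 ones, but 9.54 on all 3 lower-TACC3 GAS1-high arrays against 9.67, 9.75 and 9.77. The directions in these sets were opposite. TM7SF2 likewise was higher by 0.24 on lower-TACC3 arrays of the ARMCX3-low set and lower by 0.22 and 0.44 in the GAS1-high and FGFR3-low sets. SCARB1 differed by -0.79 in the FGFR3-low and -0.43 in the GAS1-high arrays, and overlapped in the ARMCX3-low arrays at -0.07. NPC2 lay at 12.09 to 12.26 on the ARMCX3-low arrays, where the sides overlapped, and at 12.59 to 12.89 on all others. It was lower on the lower-TACC3 side of the GAS1-high and FGFR3-low arrays by 0.15 and 0.20, without overlap. INSIG2 was higher on the lower-TACC3 side by 0.41 and 0.45 in the ARMCX3-low and FGFR3-low sets, and overlapped in the GAS1-high set at 0.11.

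**Figure D3:**
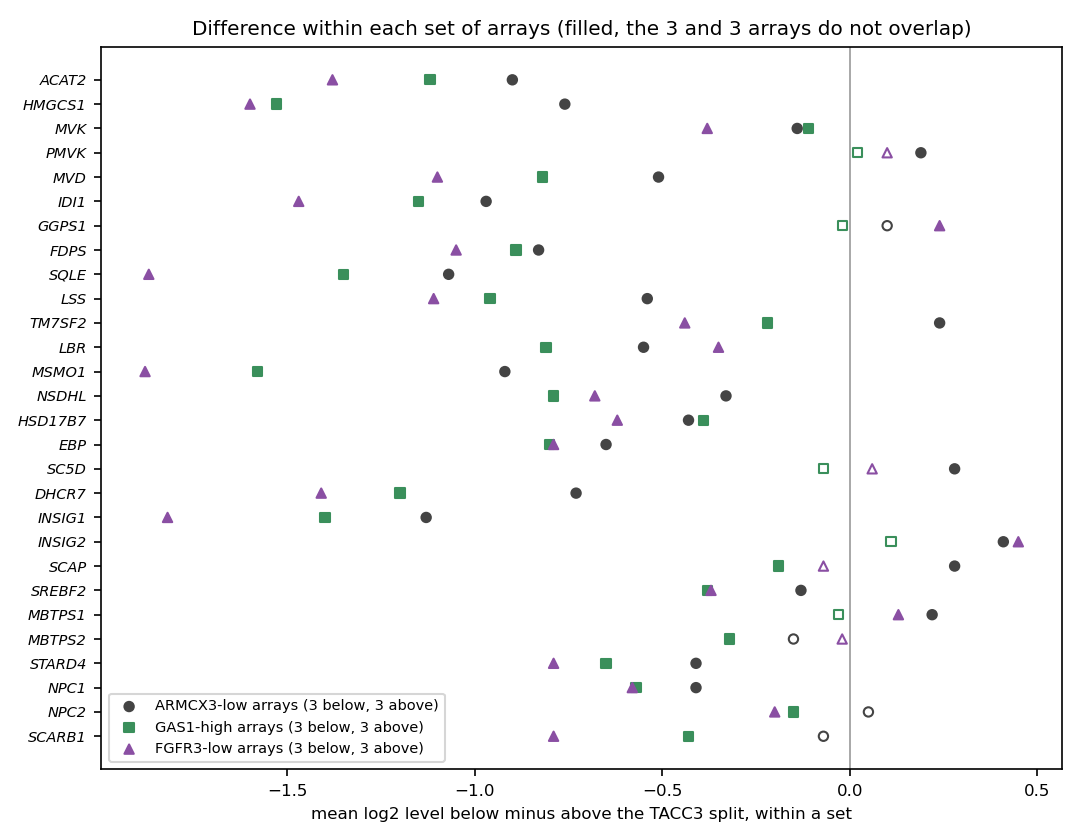
Mean log2 level of each sterol gene on the 3 lower-TACC3 arrays minus the 3 higher-TACC3 arrays of a set (x axis), for the ARMCX3-low, GAS1-high and FGFR3-low arrays; filled symbols mark genes whose 3 and 3 arrays do not overlap. Differences of SQLE run from -1.07 to -1.87, while those of SCAP and TM7SF2 lie on both sides of 0.

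**Figure D4:**
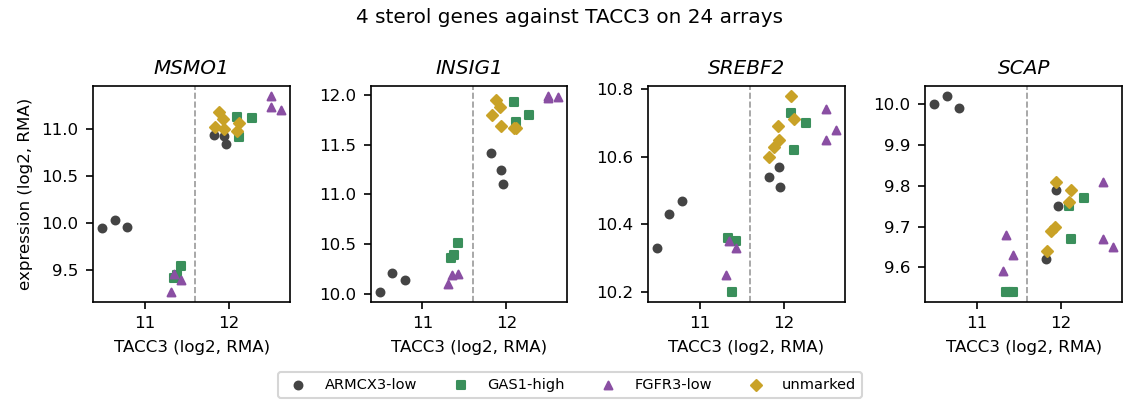
Log2 expression of MSMO1, INSIG1, SREBF2 and SCAP (y axes) against TACC3 (x axes) on 24 arrays, with a symbol for each set and a dashed line at the split. MSMO1 on the ARMCX3-low arrays left of the line, 9.95 to 10.03, lies above the other arrays left of it although TACC3 is lowest there.

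The comparisons by label asked whether doxycycline changed these genes in each line. The targeted gene did not bear out the labels. FGFR3, read by its dimmer probe set, was 9.80, 10.58 and 9.19 on the arrays labelled EGFP without doxycycline, in order of replicate number. It was 10.58, 9.21 and 10.95 on those labelled 2-4 with doxycycline, 9.29, 10.59 and 10.49 on those labelled 4-1 and 10.47, 8.91 and 10.84 on those labelled 6-16. Low and high values thus stood under labels of control and of knockdown alike. The labels may not name the right arrays, and each change, SE and p below holds for arrays as labelled and may not be an effect of the hairpins or of doxycycline. None of the 28 genes passed limma's test in any line, and 0% of all 19775 genes did in each. HMGCS1 serves as the example. On arrays labelled EGFP it was 8.92, 10.18 and 8.69 without doxycycline and 10.26, 10.25 and 8.83 with it. On those labelled 2-4 it was 10.41, 9.36 and 10.36 without and 10.24, 8.80 and 10.34 with doxycycline. The low arrays were those with lower TACC3 under either label, and the labelled groups overlapped in both lines. On those labelled 4-1 the values were 9.59, 8.70 and 10.41 without and 8.88, 10.28 and 10.35 with doxycycline. On those labelled 6-16 they were 10.47, 10.35 and 10.34 without and 10.20, 9.57 and 10.28 with doxycycline. Here the arrays without doxycycline, of which 0 lay below the TACC3 split, all exceeded those with it.

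The mean of HMGCS1 on arrays labelled EGFP was 9.26 ± 0.80 (SD, n = 3) for no doxycycline and 9.78 ± 0.82 for doxycycline. Arrays labelled 2-4 had 10.04 ± 0.59 and 9.79 ± 0.86, those labelled 4-1 had 9.57 ± 0.85 and 9.83 ± 0.83, and those labelled 6-16 had 10.39 ± 0.07 and 10.02 ± 0.39. The log2 changes of HMGCS1 were 0.52, -0.25, 0.27 and -0.37 in the EGFP, 2-4, 4-1 and 6-16 lines, with an SE of 0.53 and limma adjusted p of 0.975, 0.999, 1.00 and 0.877. Leaving out replicate 2 of the doxycycline arrays turned the 2-4 change to 0.25. Leaving out replicate 2 of the untreated arrays turned the 4-1 change to -0.16.

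The other genes named by value were not called either. INSIG1 had log2 changes of 0.71, -0.09, 0.28 and -0.58 in those lines with an SE of 0.62. IDI1 had 0.59, -0.05, 0.29 and -0.33 with an SE of 0.50. SQLE had 0.62, -0.20, 0.33 and -0.60, SE 0.57 each. None of these values exceeded the spread between arrays of the same label by limma's test. On arrays labelled EGFP, the change without doxycycline replicate 3 was 1.16 for INSIG1, 0.94 for IDI1, 1.13 for SQLE and 0.99 for HMGCS1. Without untreated replicate 3 it was 0.31 for IDI1, 0.35 for SQLE and 0.23 for HMGCS1, and without doxycycline replicate 2 it was 0.44 for INSIG1. With array weights, the changes on these arrays were 1.25, 1.09, 1.27 and 1.15 for INSIG1, IDI1, SQLE and HMGCS1, still not called by limma. STARD4 had 0.36, -0.16, 0.01 and -0.19 with an SE of 0.29, and SREBF2 0.21, 0.04, 0.07 and -0.07 with an SE of 0.14. For these 6 genes limma's adjusted p ran from 0.815 to 1.00.

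Over the 28 genes the median log2 change was 0.30, -0.06, 0.14 and -0.22 on arrays labelled EGFP, 2-4, 4-1 and 6-16, against 0.023, -0.0052, -0.0078 and 0.028 over all genes. Changes above 0 were seen for 23, 11, 21 and 9 genes. At an unadjusted p under 0.05 there were 0, 0, 0 and 1 genes, against 2.55%, 2.46%, 1.13% and 7.78% of all genes. The 1 gene was PMVK in the 6-16 line, named after its values were seen, with 0.18 ± 0.08 (SE) and a limma adjusted p of 0.607. Leaving out 1 array at a time gave medians of 0.15, with untreated replicate 3 left out, to 0.38 for EGFP. For 2-4 it gave -0.24, with untreated replicate 2 left out, to 0.16, with doxycycline replicate 2 left out. For 4-1 it gave -0.02, with untreated replicate 2 left out, to 0.35, with untreated replicate 3 left out, and for 6-16 -0.32 to -0.00, the last with doxycycline replicate 2 left out. With array weights in limma the medians were 0.42, -0.07, 0.26 and -0.07.

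The mean change of the FGFR3 lines minus that of the EGFP line was tested for the same genes. It uses the arrays of the line changes and is not separate from them. None of the 28 genes passed limma's test, as 0% of all genes did, and 0 did at an unadjusted p under 0.05, against 2.16% of all genes. The median was -0.33, with 23 genes below 0, against -0.017 over all genes. The labelled groups held unlike numbers of lower-TACC3 arrays. Without and with doxycycline there were 2 and 1 for EGFP and 1 and 1 for 2-4. There were 2 and 1 for 4-1, and 0 and 1 for 6-16. The part of these numbers in the median was not tested. INSIG1 had -0.83 ± 0.71 (SE), IDI1 -0.62 ± 0.58, STARD4 -0.48 ± 0.34 and SREBF2 -0.20 ± 0.16, each with a limma adjusted p of 1.00. Leaving out doxycycline replicate 1 of the EGFP arrays moved the median to -0.20. Leaving out doxycycline replicate 3 moved it to -0.46 and INSIG1 to -1.29, IDI1 to -0.98 and SREBF2 to -0.31. Leaving out untreated replicate 3 of these arrays moved IDI1 to -0.35.

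**Figure D5:**
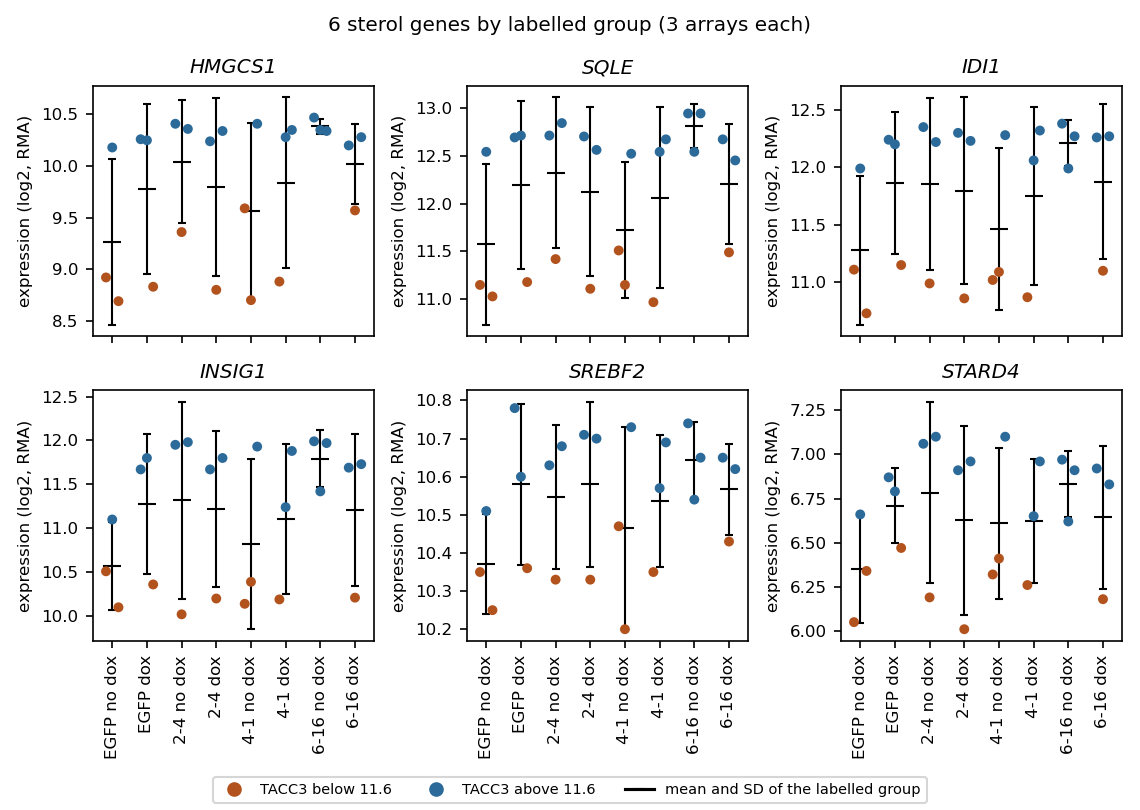
Log2 expression (y axes) of HMGCS1, SQLE, IDI1, INSIG1, SREBF2 and STARD4 in the 8 labelled groups (x axes); points are arrays, coloured by the side of the TACC3 split, and bars are the mean and SD of 3 arrays. Lower-TACC3 arrays lie at the bottom of every group that holds one, and the 6-16 group without doxycycline holds 0.

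Further genes of the pathway came from a list of 32, of which 27 were measured. Limma called 0 of them in any comparison by label, as 0% of all genes. Across the TACC3 split 5 lay wholly lower on the lower-TACC3 arrays, against 3.09% of all genes, and 1 wholly higher, against 2.90%. The other 21 overlapped, and the median difference was -0.05. LRP8, a receptor of the lipoprotein receptor family, had 7.01 to 8.17 against 9.08 to 9.49. ACSS2, which makes acetyl-CoA from acetate, had 9.51 to 9.78 against 10.06 to 10.82. Both separated the sides, as did PDSS1, which builds the tail of coenzyme Q, with 7.97 to 8.33 against 8.72 to 9.04. SREBF1, the gene of the related factor SREBP1, overlapped, with medians of 10.47 and 11.21. The 1 gene that lay higher was SOAT1, which stores cholesterol as esters, with 10.08 to 10.41 against 9.46 to 9.91, named after its values were seen.

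Within each side the genes were set against HMGCS1 as a description. Over the 9 lower-TACC3 arrays the Pearson correlation was above 0 for 19 of 27 genes, with a median of 0.51 and a median Spearman value of 0.53. Over the 15 others it was above 0 for 23, with medians of 0.39 and 0.34. MSMO1 had a Pearson value of 0.98 on the lower and 0.79 on the higher side, and INSIG1 -0.40 and 0.65. On the lower side, genes that overlapped across the split had high values too, 0.95 for SCAP and 0.90 for SC5D and INSIG2. FDPS had -0.75 and NPC2 -0.90 there. Among these, MSMO1, SCAP, SC5D and INSIG2 lay higher, and FDPS and NPC2 lower, on the ARMCX3-low arrays, where HMGCS1 was highest on that side. No share over all genes was taken. Arrays share the cell line, the joint normalization and the sets described above.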

How the data were processed

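The authors deposited RMA expression on a log2 scale for 54675 probe sets and 24 arrays. The submitters' processing notes name RMA and affy, with no version. RMA makes the distributions of arrays alike, with medians from 6.98 to 7.08, so a shift of most genes together would be removed. Precision is limited by the number of arrays.

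GEO's annotation of the platform gave 41097 probe sets 1 symbol, 1801 several and 11777 none, and symbols were checked by Entrez identifier against RefSeq GRCh38.p14. The brightest probe set stood for a gene. The members and gene lists were chosen with earlier results of these data known.

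The limma model (version 3.58.1, R 4.3.3) had 1 coefficient for each of 8 labelled groups over all 24 arrays. Adjusted p-values are Benjamini-Hochberg values over 19775 genes, with a threshold of 0.05. The fit and the overlap count were tested on simulated data. All 28 measured genes were described, and by label the 6 genes HMGCS1, SQLE, IDI1, INSIG1, SREBF2 and STARD4 by value. Same-numbered arrays of a line were checked for pairing. The correlation of their deviations was over 0.1 in 9 of 12 pairs, which include all 3 pairs of the 2-4 and of the 6-16 line, and ran from -0.53 to 0.61. The labels give no shared culture or day, and the numbers were not used to pair arrays. Alternatives were the mean of a gene's probe sets, a mean log2 value of at least 6, the replicate number as a block, array weights and leaving out arrays. Figures were drawn with matplotlib 3.10.9.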

Additional observations from a re-analysis of the deposited data

How the results depend on the processing

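By limma, 0 of the 28 sterol genes were called in any comparison by label under each alternative run. Over all genes, 0 were called in the 6-16 line as reported, 1 with the replicate number as a block and 1291 with array weights; the cause was not tested. With the replicate block, the median change of the 28 genes stayed at 0.30, -0.06, 0.14 and -0.22 in the EGFP, 2-4, 4-1 and 6-16 lines, and the block changed no call of these genes. The count of genes that separated the sides was 17 or 18 without any 1 array, with a median difference of -0.56 to -0.52. It was 17 with the mean of probe sets and 18 without the arrays nearest the split, and 20, 18, 17 and 17 without the ARMCX3-low, GAS1-high, FGFR3-low and unmarked arrays, which was added after seeing the data. Leaving arrays out can only narrow the range of a side. The counts with arrays left out could therefore not fall under 17, and they are no further evidence.

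Signs of single genes turned when 1 array was left out. In the 2-4 line, the change ran from -0.59 to 0.25 for HMGCS1, -0.66 to 0.30 for SQLE, -0.48 to 0.42 for IDI1, -0.74 to 0.42 for INSIG1, -0.07 to 0.16 for SREBF2 and -0.45 to 0.15 for STARD4. In the 4-1 line it ran from -0.16 to 0.75 for HMGCS1, -0.10 to 0.84 for INSIG1, -0.06 to 0.20 for SREBF2 and -0.16 to 0.26 for STARD4. In the 6-16 line it ran from -0.53 to 0.06 for IDI1 and -0.33 to 0.04 for STARD4. With the mean of probe sets, IDI1 was 0.03 and SREBF2 -0.00 in the 2-4 line. Fewer arrays or other probe sets enter these values, and no further cause was tested.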
